A study of Homo sapiens with 9 samples.

Results

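Chemokine and apelin signals guide gastrulating cells, and 6 of their genes are described here in human definitive endoderm of 3 CHD7 genotypes. The genes are the receptors CXCR4, ACKR3 and APLNR and the ligands CXCL12, APLN and APELA, listed by name for their place in these pathways. They were chosen with earlier results of these data known. All 6 have a row among the 26240 genes of the count table, and 5 of them had enough reads to be tested. The cells were derived from H9, an established human embryonic stem cell line, edited with CRISPR/Cas9 at CHD7, whose product is an ATP-dependent chromatin remodeller. RNA was sequenced from endoderm of homozygous (CHD7-/-), heterozygous (CHD7+/-) and wild-type (CHD7+/+) cells, with 3 libraries of each genotype, numbered replicates 1 to 3. The purpose given is to set the transcriptomes of the 3 genotypes against each other. The labels name no clones, separate cultures or days of differentiation and no sorting of cells, so the p-values speak of the spread among these 9 libraries, which could be technical.

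In the textbook picture CXCL12 is a secreted chemokine that binds CXCR4, a Gi-coupled receptor, and directs cells up its gradient. ACKR3 binds the same ligand with high affinity, signals through arrestin rather than Gi and takes the ligand up, which shapes the gradient. In zebrafish, endodermal cells carry the CXCR4 orthologue while the mesoderm makes the ligand, and loss of either detaches endoderm from mesoderm during migration. APLNR is the Gi-coupled receptor of 2 peptide ligands, apelin (APLN) and the embryonic peptide ELABELA (APELA, known as Toddler in zebrafish), and Toddler is required there for movement of mesendodermal cells. CXCR4 protein is also the surface marker by which definitive endoderm made from stem cells is usually recognised.

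Total counts per library ran from 11854173 to 37519729, the lowest being homozygous replicate 1. CHD7 followed the labels: it averaged 51.5 ± 7.41 CPM (reads of the gene scaled to the size of the library) in homozygous, 123 ± 11.2 CPM in heterozygous and 193 ± 3.29 CPM in wild-type libraries (SD, n = 3 each). The definitive endoderm markers were present in every library, SOX17 at 562 to 732 CPM, EOMES at 715 to 872 CPM and GATA6 at 623 to 742 CPM. Of the defining markers of other cell types, the early mesoderm gene TBXT reached at most 3.78 CPM, the endothelial adhesion gene PECAM1 0.331 CPM and the neural gene PAX6 0.623 CPM. The endothelial factor SOX18 was higher, at 4.96 to 13.96 CPM, and the full endothelial and blood list summed to 478 to 712 CPM and the neuroectoderm list to 350.1 to 446 CPM over the 9 libraries. The pluripotency factor POU5F1 varied more, at 33.5 to 122 CPM in homozygous, 116 to 193 CPM in heterozygous and 56.1 to 95.3 CPM in wild-type libraries. In bulk RNA, fewer cells of a type and less RNA per cell cannot be told apart.

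The upstream sequences of CXCL12, the member whose level differed most clearly between genotypes, and of CXCR4, its abundant receptor, are shown so that the pair can be compared. Each is the 250 bases before a RefSeq transcription start (GRCh38.p14), on the strand of the gene, and capitals mark GGGCGG on either strand, the core of the GC box bound by Sp1-type factors. RefSeq lists 3 starts for CXCR4, of which the most upstream is shown.
CXCL12, chr10:44385098-44385347, minus strand: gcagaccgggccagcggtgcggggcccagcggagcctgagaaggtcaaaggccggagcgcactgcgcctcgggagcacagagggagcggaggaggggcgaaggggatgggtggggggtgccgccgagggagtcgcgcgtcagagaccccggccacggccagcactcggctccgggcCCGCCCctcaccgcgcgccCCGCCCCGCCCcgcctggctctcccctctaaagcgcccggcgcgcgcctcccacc
CXCR4, chr2:136118150-136118399, minus strand: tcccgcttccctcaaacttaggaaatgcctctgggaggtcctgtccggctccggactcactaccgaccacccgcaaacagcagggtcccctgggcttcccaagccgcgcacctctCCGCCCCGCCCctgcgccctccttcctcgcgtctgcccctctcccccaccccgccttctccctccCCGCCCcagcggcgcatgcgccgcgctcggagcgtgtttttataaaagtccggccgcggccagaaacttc
Both windows are rich in G and C, 78.0% for CXCL12 and 68.0% for CXCR4, against a median of 58.0% over the 35116 starts of the RefSeq table. Each holds 3 matches to GGGCGG, of which 2 overlap, and 42.6% of all these windows hold at least 1. CXCR4 also has the TATA box core TATAAA once on the strand shown, ending 25 bases before the start, with its reverse complement overlapping it. Read on either strand, this motif was found in 10.7% of windows and was absent from the CXCL12 window. The core of the hypoxia response element, ACGTG or GCGTG on either strand, occurs once in the CXCR4 window and not in that of CXCL12, and 43.2% of all windows hold it. These are letters in a window, not evidence of binding.

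CXCL12 was lower in homozygous endoderm, while the levels of both its receptors differed little between genotypes. CXCR4 and ACKR3 were among the most abundant messages of these cells. Compared per length, as CPM per kilobase of exon, CXCR4 averaged 264, 264 and 280.3 and ACKR3 144, 132 and 141 in homozygous, heterozygous and wild-type cells. In wild-type cells CXCR4 lay above 99.3% and ACKR3 above 98.6% of the tested genes on this scale. CXCL12 averaged 2.04, 3.08 and 6.30, and APLNR 3.91, 2.91 and 3.48, in the same order of genotypes. APELA averaged 0.120, 0.814 and 0.285, and APLN at most 0.0433 in any genotype. The order CXCR4, then ACKR3, then CXCL12 and APLNR, then APELA, then APLN therefore held in wild-type cells, where CXCL12 libraries (4.30 to 7.37) lay above the APLNR libraries (2.47 to 4.21). In homozygous cells CXCL12 (1.38 to 3.27) and APLNR (2.52 to 6.50) overlapped and APLNR had the higher mean. In wild-type cells APELA (0.0531 to 0.669) and APLN (0.0167 to 0.0614) also overlapped.

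**Figure D1:**
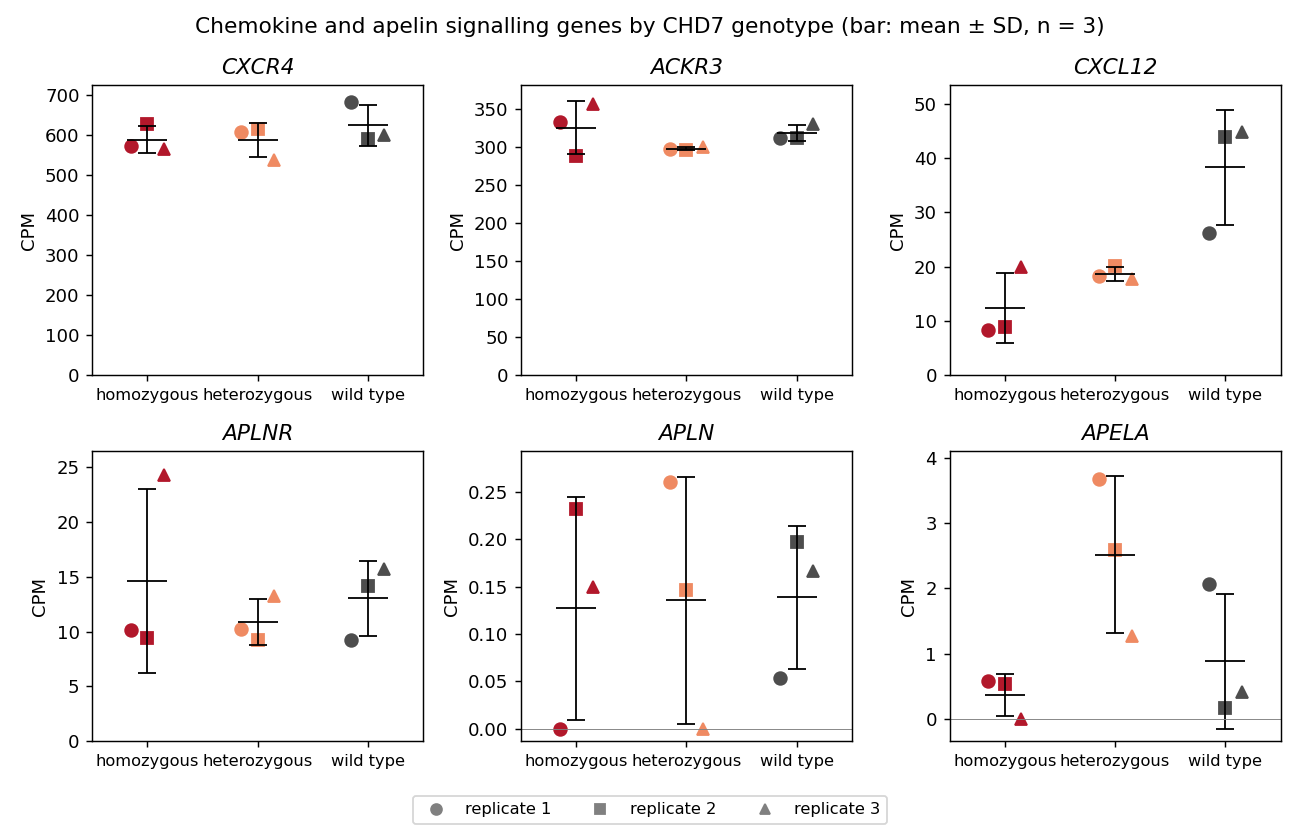
Level in CPM (y axis, linear, 0 included) of each of the 6 genes in the 3 genotypes (x axis), with 1 symbol per library and a bar and whiskers for the mean ± SD of 3 libraries. CXCR4 and ACKR3 sit at similar heights in all genotypes, CXCL12 is lowest in homozygous replicates 1 and 2 (8.36 and 8.97 CPM), and APELA is highest in heterozygous replicate 1 (3.68 CPM).

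CXCR4 (ENSG00000121966, chromosome 2 from 136114349 to 136118165, minus strand, GRCh38) was the most abundant member. It was measured at 573, 627 and 564 CPM in homozygous replicates 1, 2 and 3, at 607, 614 and 537 CPM in the heterozygous replicates and at 683, 588 and 599 CPM in the wild-type replicates. The 3 genotypes overlapped throughout, and wild-type replicate 1 was the highest library. The means were 588 ± 34.0 CPM in homozygous, 586 ± 42.5 CPM in heterozygous and 623 ± 51.6 CPM in wild-type cells (SD, n = 3 each). CXCR4 did not pass the test in homozygous against wild-type cells, with a log2 fold change of -0.08 (SE 0.09, edgeR quasi-likelihood test, Benjamini-Hochberg adjusted p = 0.594). The 95% interval of that change runs from -0.27 to 0.10, or from 0.828 to 1.07 times the wild-type level. In heterozygous against wild-type cells the log2 fold change was -0.09 (interval -0.28 to 0.10, edgeR adjusted p = 0.726), and in homozygous against heterozygous cells 0.01 (interval -0.18 to 0.19, edgeR adjusted p = 0.980).

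ACKR3 (ENSG00000144476, chromosome 2 from 236567787 to 236582358, plus strand), the scavenging receptor formerly called CXCR7, was likewise abundant in every library. Its level was 333, 289 and 357 CPM in the homozygous, 298, 297 and 301 CPM in the heterozygous and 312, 312 and 330.4 CPM in the wild-type replicates. The homozygous libraries spanned the range of all others, while the heterozygous libraries lay just below every wild-type library. None of the 3 comparisons passed the test: the log2 fold change was 0.03 (interval -0.15 to 0.22, edgeR adjusted p = 0.839) for homozygous over wild type, -0.09 (interval -0.27 to 0.09, edgeR adjusted p = 0.703) for heterozygous over wild type and 0.13 (interval -0.05 to 0.31, edgeR adjusted p = 0.431) for homozygous over heterozygous. Without homozygous replicate 3 the first of these was -0.033. Heterozygous and wild-type libraries of ACKR3 did not overlap, as was the case for 22.2% of all tested genes in that comparison.

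CXCL12 (ENSG00000107562, chromosome 10 from 44370165 to 44386493, minus strand) fell in homozygous cells. It was measured at 8.36, 8.97 and 19.9 CPM in homozygous replicates 1, 2 and 3, from 100, 271 and 399 reads. The heterozygous replicates had 18.4, 20.1 and 17.7 CPM and the wild-type replicates 26.2, 43.9 and 44.8 CPM. Every homozygous and every heterozygous library lay below every wild-type library, and homozygous replicate 3 lay within the heterozygous range. Libraries without overlap were found for 28.9% of tested genes in homozygous against wild-type cells and for 22.2% in heterozygous against wild-type cells.

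The means were 12.4 ± 6.49 CPM in homozygous, 18.7 ± 1.25 CPM in heterozygous and 38.3 ± 10.5 CPM in wild-type cells (SD, n = 3 each). In homozygous against wild-type cells the log2 fold change of CXCL12 was -1.61 (SE 0.28, interval -2.23 to -0.99, edgeR adjusted p = 0.00375), a level 0.327 times that of wild type. Of the 5 tested members 0 were called higher and 1, CXCL12, lower in this comparison, in which 3.5% of all tested genes were called higher, 4.18% lower and 7.68% in either direction. In heterozygous against wild-type cells the log2 fold change was -1.03 (SE 0.27, interval -1.62 to -0.44), which did not pass after adjustment over all genes (unadjusted p = 0.00248, edgeR adjusted p = 0.0915). That difference was called without wild-type replicate 1 (edgeR adjusted p = 0.0390) and without homozygous replicate 3 (0.00497), the libraries farthest from the others of their genotype. Homozygous cells did not differ from heterozygous cells beyond the test (log2 fold change -0.58, SE 0.29, interval -1.20 to 0.04, edgeR adjusted p = 0.301), but were called lower without homozygous replicate 3 (-1.10, edgeR adjusted p = 0.0182). In heterozygous against wild-type and in homozygous against heterozygous cells 0 of the 5 members were called by edgeR, DESeq2 or limma-voom, with 1 at an unadjusted p below 0.05 in each. Over all tested genes 1.86% were called in the first of these (0.82% higher, 1.04% lower, and 13.5% at an unadjusted p below 0.05). The second had 2.21% (0.986% higher, 1.22% lower, and 18.3% at an unadjusted p below 0.05).

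The relation of ligand to receptor was also read within each library, where it does not depend on how libraries are scaled. There were 68.6, 69.9 and 28.4 CXCR4 reads for each CXCL12 read in homozygous replicates 1, 2 and 3. The heterozygous replicates had 33.1, 30.5 and 30.4, and the wild-type replicates 26.1, 13.4 and 13.4. All mutant libraries therefore had more receptor reads per ligand read than any wild-type library, with homozygous replicate 3 the nearest to wild type among them. Since CXCR4 overlapped between genotypes, these ratios mostly restate the CXCL12 levels and are not a separate result. How often other gene pairs separate in this way was not computed. The ACKR3 reads per CXCR4 read lay between 0.461 and 0.632 in homozygous, 0.484 and 0.559 in heterozygous and 0.457 and 0.551 in wild-type libraries, and so overlapped.

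**Figure D2:**
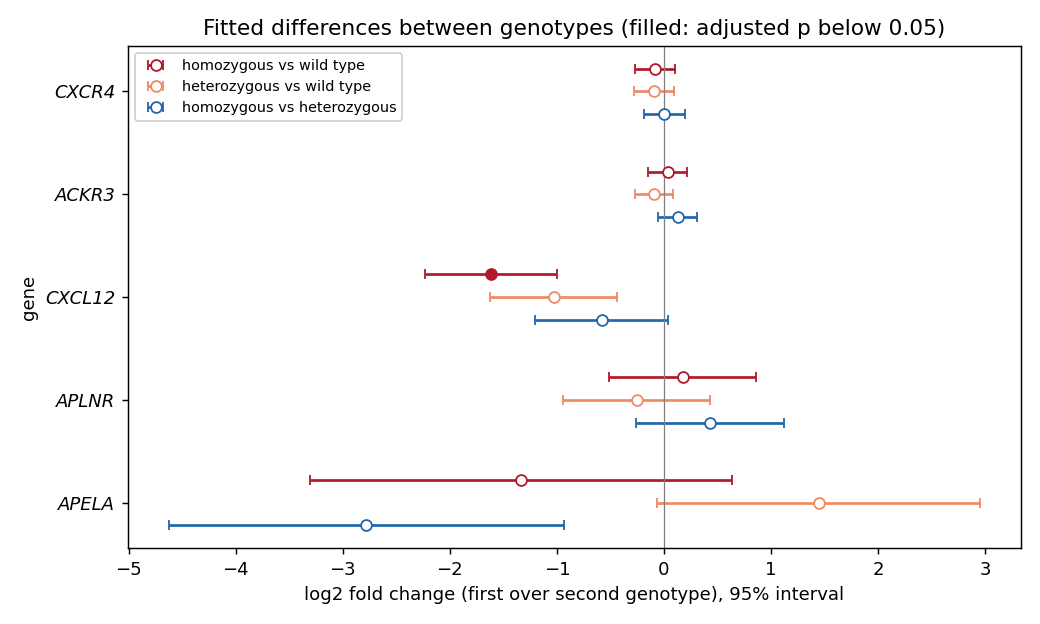
Log2 fold change (x axis, first genotype over second) of the 5 tested genes (y axis) in the 3 comparisons, with 95% intervals, filled where the edgeR adjusted p is below 0.05. Only CXCL12 in homozygous against wild-type cells is filled (-1.61), the CXCR4 and ACKR3 intervals are narrow around 0, and those of APELA are the widest.

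Since mesodermal and stromal cells are known sources of CXCL12, the mesoderm markers were read beside it. The summed level of the 14 listed mesoderm genes with a row was 51.4 to 77.1 CPM in homozygous, 48.1 to 54.8 CPM in heterozygous and 44.5 to 56.1 CPM in wild-type libraries. BMP4 alone carried much of this sum, at 33.5 to 52.7 CPM in homozygous, 26.6 to 30.2 CPM in heterozygous and 18.8 to 28.8 CPM in wild-type libraries. The sum therefore does not show how the other listed genes moved. Of 9 tested mesoderm genes 2 were called (22.2%, beside 7.68% of all genes): BMP4, a signalling ligand, rose (log2 fold change 0.78, edgeR adjusted p = 0.0164) and TWIST1, a transcription factor of mesenchyme, fell (-1.66, edgeR adjusted p = 0.0207) for homozygous relative to wild-type cells. In the same comparison DESeq2 called 1 of the 9 higher and 3 lower, and limma-voom 1 higher and 2 lower. Over all genes DESeq2 called 847 higher and 918 lower, and limma-voom 585 higher and 740 lower. An unadjusted edgeR p below 0.05 was found for 4 of the 9, beside 23.2% of all genes. The early mesoderm factor HAND1 had 0 reads in 5 of the 9 libraries and MEOX1 in 4. TBXT was at 0.585, 1.59 and 1.79 CPM in homozygous, 1.82, 2.01 and 3.52 CPM in heterozygous and 2.44, 2.98 and 3.78 CPM in wild-type replicates. It did not pass in homozygous against wild-type cells (log2 fold change -1.12, edgeR adjusted p = 0.0731). The part of mesoderm cells in the CXCL12 result was not tested. The call of BMP4 was lost without wild-type replicates 1 (edgeR adjusted p = 0.0657) or 2 (0.0676), and that of TWIST1 without wild-type replicates 1 (0.0731) or 2 (0.0552) or homozygous replicates 1 (0.0649) or 2 (0.0668).

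APLNR (ENSG00000134817, chromosome 11 from 57233577 to 57237314, minus strand), the apelin receptor, was expressed at a modest level with 1 library standing apart. Its level was 10.1, 9.40 and 24.3 CPM in homozygous replicates 1, 2 and 3, 10.2, 9.24 and 13.2 CPM in the heterozygous and 9.23, 14.1 and 15.7 CPM in the wild-type replicates. The genotypes overlapped, and homozygous replicate 3 was the highest of the 9 libraries. The means were 14.6 ± 8.39, 10.9 ± 2.08 and 13.0 ± 3.39 CPM in homozygous, heterozygous and wild-type cells (SD, n = 3 each). The log2 fold change in homozygous against wild-type cells was 0.18 (SE 0.32, interval -0.51 to 0.86, edgeR adjusted p = 0.779), and without homozygous replicate 3 it was -0.41 (edgeR adjusted p = 0.237). For heterozygous over wild type it was -0.25 (interval -0.94 to 0.43, edgeR adjusted p = 0.796), and in homozygous against heterozygous cells 0.43 (interval -0.26 to 1.12, edgeR adjusted p = 0.489). Without homozygous replicate 3 the last of these was -0.16, and without wild-type replicate 1 the first was -0.03. The same homozygous replicate 3 also had the highest CXCL12 of its genotype and the lowest POU5F1 of all libraries, at 33.5 CPM.

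APLN (ENSG00000171388, X chromosome from 129645259 to 129654937, minus strand), the gene of apelin, was close to the limit of detection. It had 0, 7 and 3 reads in the homozygous, 8, 4 and 0 in the heterozygous and 2, 6 and 4 in the wild-type replicates. Summed over a genotype this is 0.162 CPM (95% Poisson interval 0.0778 to 0.298) in homozygous, 0.148 CPM (0.0764 to 0.258) in heterozygous and 0.128 CPM (0.0664 to 0.224) in wild-type cells, here over total counts. With so few reads APLN did not pass the filter on low counts and has no test. The 2 libraries with 0 reads, homozygous replicate 1 and heterozygous replicate 3, allow up to 0.253 and 0.128 CPM, and no genotype stood apart. Such intervals and limits cover counting error alone, because PCR copies of a molecule are counted as separate reads.

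APELA (ENSG00000248329, chromosome 4 from 164877004 to 164898965, plus strand), the gene of ELABELA, was low and differed widely between libraries. It had 7, 16 and 0 reads in homozygous replicates 1, 2 and 3, or 0.585, 0.530 and 0 CPM, where the 0 allows up to 0.151 CPM. The heterozygous replicates had 3.68, 2.59 and 1.27 CPM and the wild-type replicates 2.07, 0.164 and 0.415 CPM. Every homozygous library lay below every heterozygous library, as was the case without regard to direction for 19.5% of tested genes, while the wild-type libraries reached into both ranges. The log2 fold change in homozygous against heterozygous cells was -2.78 (SE 0.85, interval -4.63 to -0.94), which did not pass after adjustment (unadjusted p = 0.00636, edgeR adjusted p = 0.116), but was called without wild-type replicate 1 (edgeR adjusted p = 0.0487). For homozygous over wild type it was -1.34 (interval -3.31 to 0.64, edgeR adjusted p = 0.405), and 0.38 without wild-type replicate 1 (edgeR adjusted p = 0.843). For heterozygous over wild type it was 1.44 (interval -0.06 to 2.95, edgeR adjusted p = 0.392), and 3.16 without wild-type replicate 1 (edgeR adjusted p = 0.0502).

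ELABELA is also known as a self-renewal factor of human embryonic stem cells, so the pluripotency genes are given beside it. POU5F1 was at 122, 114 and 33.5 CPM in homozygous, 193, 168 and 116 CPM in heterozygous and 95.3, 56.1 and 57.4 CPM in wild-type replicates 1, 2 and 3. SOX2 was at 5.93, 6.39 and 0.848 CPM in homozygous, 19.1, 15.9 and 5.59 CPM in heterozygous and 7.11, 4.07 and 3.36 CPM in wild-type replicates. APELA, POU5F1 and SOX2 shared their highest library, heterozygous replicate 1, and their lowest, homozygous replicate 3, while the summed pluripotency list ran in another order. The summed level of the 25 listed pluripotency genes was 7550 to 8999 CPM in homozygous, 7970.1 to 8127 CPM in heterozygous and 7837 to 8505 CPM in wild-type libraries. This sum was highest of all 9 libraries in homozygous replicate 3 (8999 CPM), and was lowest of its genotype in heterozygous replicate 1 (7970.1 CPM) and in wild-type replicate 1 (7837 CPM). Genes far more abundant than POU5F1 and SOX2 weigh more in it, such as TDGF1 at 817 to 1042 CPM over the 9 libraries. The sum therefore cannot show how POU5F1, SOX2 or remaining stem cells varied. Of 23 tested pluripotency genes 1, TDGF1, fell in homozygous against wild-type cells (4.35%, beside 7.68% of all genes), a call lost under 15 of 18 alternatives. It was lost without any one library other than heterozygous replicate 3, with edgeR adjusted p between 0.0622 and 0.198. NANOG and TERF1 fell in homozygous against heterozygous cells (8.70%, beside 2.21% of all genes), and these calls were lost under 8 and 6 of 18 alternatives. For NANOG they include leaving out wild-type replicates 1 (edgeR adjusted p = 0.0509), 2 (0.0631) or 3 (0.0659), heterozygous replicates 1 (0.0876) or 2 (0.139) or homozygous replicate 1 (0.0699). For TERF1 they include leaving out wild-type replicate 2 (edgeR adjusted p = 0.0506), heterozygous replicate 2 (0.0926) or homozygous replicates 2 (0.0564) or 3 (0.0533). Between heterozygous and wild-type cells 0 of the 23 were called by edgeR or limma-voom and 2 by DESeq2, with 10 at an unadjusted p below 0.05. Over all 16837 tested genes 1.86% were called by edgeR and 13.5% had an unadjusted p below 0.05, and DESeq2 called 280 higher and 294 lower. The median log2 fold change of the 23 was 0.26 against 0.004 over all genes. The part of remaining stem cells in the APELA values was not tested.

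**Figure D3:**
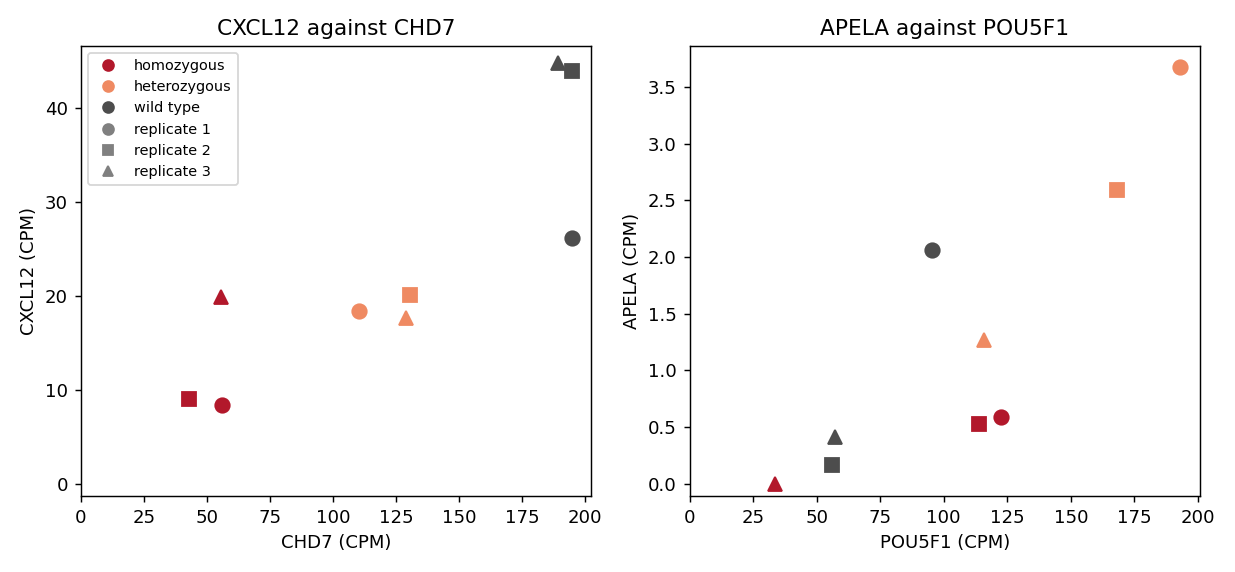
Left, CXCL12 against CHD7, and right, APELA against POU5F1, in CPM on linear axes, with 1 point per library, colour for genotype and shape for replicate number. CXCL12 is highest in the wild-type libraries, which have the most CHD7, and homozygous replicate 3 (19.9 CPM) sits at the height of the heterozygous libraries. APELA is highest in heterozygous replicate 1, which also has the most POU5F1 (193 CPM).

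The genes whose profile over the 9 libraries was most like each member were picked by Pearson r of log2 CPM among 10345 protein-coding genes with a mean of at least 5 CPM. CXCL12 was most like FAM13C (r = 0.988), NRP1, a neuropilin co-receptor of semaphorins and VEGF (0.985), and SKP2, a ubiquitin ligase subunit of the cell cycle (0.982). NRP1 averaged 5.79, 9.25 and 18.4 CPM and FAM13C 2.79, 4.28 and 9.83 CPM in homozygous, heterozygous and wild-type cells. APLNR was most like ITM2B (0.981), AJM1 (0.961) and NRCAM, a neural adhesion gene (0.954). Among the genes most like APELA were SEMA6A, a transmembrane semaphorin (0.964), and the growth factor gene FGF2 (0.961). ACKR3 was most like KCTD10 (0.951), SIDT2 (0.935) and CUL7 (0.933), and CXCR4 most like GHDC (0.916), RITA1 (0.913) and SHMT2 (0.910). These r share the same 9 libraries and genotypes and describe likeness only.

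Other chemokines and their receptors were mostly silent in these cells. Of the 51 listed genes of the chemokine system outside the 6 members, 26 had a row and 10 passed the filter on low counts. The monocyte chemoattractant CCL2 was the most abundant of them and rose in homozygous cells. It was at 90.0, 91.4 and 48.3 CPM in homozygous, 51.1, 44.9 and 61.3 CPM in heterozygous and 36.9, 25.6 and 27.4 CPM in wild-type replicates, with homozygous replicate 3 again nearest to wild type among the homozygous libraries. Its log2 fold change in homozygous against wild-type cells was 1.35 (SE 0.22, edgeR adjusted p = 0.00209). The median log2 fold change of these 10 genes was 0.22 in homozygous against wild-type cells (0.01 over all tested genes), 0.66 in heterozygous against wild-type cells (0.004) and -0.42 in homozygous against heterozygous cells (0.01). After CCL2 the most abundant of them were CD74, CXCL14 and XCL1, at means of 2.05, 1.44 and 0.761 CPM over the 9 libraries. These medians therefore rest mostly on genes with few reads and do not show a shift of the chemokine system. Between heterozygous and wild-type cells 0 of the 10 were called by edgeR, with 4 at an unadjusted p below 0.05 and 1 called by DESeq2. Over all 16837 tested genes 1.86% were called by edgeR and 13.5% had an unadjusted p below 0.05, and DESeq2 called 280 higher and 294 lower.

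Of 33 tested genes that process the ligands or hold them at the cell surface, 3 fell and 1 rose in homozygous against wild-type cells (12.1%, beside 7.68% of all genes), with a median log2 fold change of -0.09 against 0.01 over all genes. DPP4, the peptidase that inactivates CXCL12 by trimming its N terminus, was at 0.501, 0.430 and 0.449 CPM in homozygous, 0.749, 0.840 and 0.636 CPM in heterozygous and 1.45, 1.48 and 1.70 CPM in wild-type replicates. These are 6 to 54 reads a library, and the log2 fold change of DPP4 in homozygous against wild-type cells was -1.75 (SE 0.29, edgeR adjusted p = 0.00232). DPP4 did not pass in heterozygous against wild-type cells (-1.04, edgeR adjusted p = 0.0646) or in homozygous against heterozygous cells (-0.71, edgeR adjusted p = 0.249). MME, or neprilysin, which cleaves apelin, was at 14.5, 11.8 and 9.97 CPM in homozygous, 17.5, 15.6 and 15.1 CPM in heterozygous and 24.9, 20.3 and 21.2 CPM in wild-type replicates (homozygous against wild type -0.89, SE 0.14, edgeR adjusted p = 0.00189). The third, the carboxypeptidase gene CPE, fell by a log2 fold change of -0.32 (edgeR adjusted p = 0.0326), a call lost without any single wild-type library (edgeR adjusted p = 0.0837, 0.148 and 0.0988 without replicates 1, 2 and 3) and without homozygous replicates 1 (0.0718) or 2 (0.0924).

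Other proteases of the list did not pass in homozygous against wild-type cells, among them MMP2 (log2 fold change 0.27, edgeR adjusted p = 0.264), MMP14 (0.06, edgeR adjusted p = 0.729) and MMP9 (-0.15, edgeR adjusted p = 0.902), which can cleave CXCL12. PCSK2, a prohormone convertase, was the gene of this list that rose. It was at 4.76, 5.63 and 8.58 CPM in homozygous, 1.40, 1.13 and 2.16 CPM in heterozygous and 0.268, 0.722 and 0.581 CPM in wild-type replicates. It was called both in homozygous against wild-type cells (log2 fold change 3.63, SE 0.37, edgeR adjusted p = 5.78e-05) and in homozygous against heterozygous cells (2.03, SE 0.32, edgeR adjusted p = 0.00534). The heparan sulphate proteoglycan gene GPC4, the most abundant of the list at a mean of 2659 CPM over the 9 libraries, did not pass the test (log2 fold change -0.19, edgeR adjusted p = 0.212). Heterozygous cells had 0 of the 33 called against wild type by edgeR, with 6 at an unadjusted p below 0.05 and 2 called by DESeq2. Over all 16837 tested genes 1.86% were called by edgeR and 13.5% had an unadjusted p below 0.05, and DESeq2 called 280 higher and 294 lower.

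Downstream of the receptors, most of the signalling machinery stayed uncalled. Of 64 tested G protein subunits, arrestins, kinases and small GTPase regulators, 4 rose and 3 fell in homozygous against wild-type cells (10.9%, beside 7.68% of all genes), and the median log2 fold change was 0.003 against 0.01 over all genes. The Gi subunit GNAI2 (0.18, edgeR adjusted p = 0.128), the G beta subunit GNB1 (0.004, edgeR adjusted p = 0.982), CDC42 (0.01, edgeR adjusted p = 0.935) and RHOA (0.04, edgeR adjusted p = 0.771), the most abundant of the list, did not pass. GNG2, a G gamma subunit, was at 24.6, 21.0 and 19.3 CPM in homozygous, 14.3, 15.9 and 15.3 CPM in heterozygous and 9.23, 7.77 and 7.35 CPM in wild-type replicates. GNG2 was called in both mutants against wild type, with a log2 fold change of 1.40 (SE 0.13, edgeR adjusted p = 3.26e-05) in homozygous and 0.90 (SE 0.13, edgeR adjusted p = 0.00258) in heterozygous cells. These comparisons share their wild-type libraries.

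TIAM1, an exchange factor that activates the GTPase RAC1 in migrating cells, fell in both mutants. It was at 20.0, 19.4 and 27.3 CPM in homozygous, 24.3, 25.8 and 24.8 CPM in heterozygous and 33.0, 42.1 and 38.9 CPM in wild-type replicates. The log2 fold change was -0.77 (SE 0.14, edgeR adjusted p = 0.00363) in homozygous and -0.61 (SE 0.13, edgeR adjusted p = 0.0386) for heterozygous relative to wild-type cells. The heterozygous call was lost without wild-type replicates 2 (edgeR adjusted p = 0.233) or 3 (0.181), heterozygous replicates 1 (0.133), 2 (0.154) or 3 (0.0860) or homozygous replicate 1 (0.0533). RGS4, an inhibitor of Gi signalling, rose at a low level: its homozygous libraries lay between 0.563 and 1.30 CPM and its wild-type libraries between 0.107 and 0.208 CPM (log2 fold change 2.52, SE 0.51, edgeR adjusted p = 0.00825). PLCB1, a phospholipase coupled to such receptors, fell to a mean of 2.87 CPM in homozygous cells, against 5.81 CPM in wild-type cells (edgeR adjusted p = 0.00568). The more abundant PLCB3 of the same list went the other way, at 158 CPM against 127 CPM (log2 fold change 0.32, edgeR adjusted p = 0.0243). ADCY6 also rose (0.52, edgeR adjusted p = 0.00382) and MAPK3 fell (-0.45, edgeR adjusted p = 0.0216). The calls of PLCB3 and MAPK3 were each lost in 4 of the fits that left out a library. Set against wild type, in heterozygous cells 2 of the 64 rose, GNG2 and STAT3, and TIAM1 fell (4.69%, beside 1.86% of all genes). The call of STAT3 (log2 fold change 0.39, edgeR adjusted p = 0.0295) was lost without wild-type replicates 2 (0.172) or 3 (0.204) or heterozygous replicates 1 (0.0810) or 2 (0.155). In homozygous against heterozygous cells 0 were called by edgeR or limma-voom, with 12 at an unadjusted p below 0.05 and 3 called by DESeq2. Over all 16837 tested genes 2.21% were called by edgeR and 18.3% had an unadjusted p below 0.05, and DESeq2 called 367 higher and 482 lower.

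Of 50 tested adhesion and polarity genes known from endoderm movement, 6 fell and 1 rose in homozygous against wild-type cells (14%, beside 7.68% of all genes), and the median log2 fold change was -0.04 against 0.01 over all genes. TIAM1 is also a member of this list. The integrin subunit ITGAV was at 112, 75.2 and 132 CPM in homozygous, 143, 162 and 177 CPM in heterozygous replicates and between 167 and 196 CPM in wild-type libraries (homozygous against wild type -0.79, SE 0.16, edgeR adjusted p = 0.00965). PTK7, a planar polarity co-receptor, was the 1 that rose (0.46, SE 0.08, edgeR adjusted p = 0.00458). Fibronectin, FN1, the substrate of the migrating cells, did not pass (0.25, SE 0.23, edgeR adjusted p = 0.547), nor did N-cadherin, CDH2 (-0.28, SE 0.08, edgeR adjusted p = 0.0680).

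The calls of EFNB2, ZEB2 and ITGB3 within this list lay close to the threshold, and each was lost on leaving out any of several libraries. EFNB2, an ephrin ligand (-1.25, edgeR adjusted p = 0.0421), was not called without wild-type replicates 2 (0.136) or 3 (0.159), heterozygous replicate 2 (0.0681) or homozygous replicates 1 (0.130) or 2 (0.147). ZEB2, a repressor of E-cadherin (-1.06, edgeR adjusted p = 0.0328), was not called without wild-type replicates 2 (0.170) or 3 (0.105), heterozygous replicate 2 (0.0549) or homozygous replicates 1 (0.104) or 2 (0.127). ITGB3, the partner of ITGAV (-0.85, edgeR adjusted p = 0.0426), was not called without wild-type replicates 1 (0.134), 2 (0.0771) or 3 (0.108), heterozygous replicates 1 (0.0578) or 2 (0.0700) or homozygous replicates 1 (0.113) or 2 (0.0741). The number of listed genes that fell ran from 0 to 10 over the alternatives. Among heterozygous against wild-type changes PDGFA rose and TIAM1 fell (4% of the list, beside 1.86% of all genes). The call of PDGFA (log2 fold change 1.39, edgeR adjusted p = 0.0447) was lost without wild-type replicates 1 (0.121), 2 (0.228) or 3 (0.0579), heterozygous replicates 1 (0.130) or 2 (0.224) or homozygous replicate 1 (0.0644). In homozygous against heterozygous cells 0 were called by edgeR or limma-voom, with 5 at an unadjusted p below 0.05 and 2 called by DESeq2. Over all 16837 tested genes 2.21% were called by edgeR and 18.3% had an unadjusted p below 0.05, and DESeq2 called 367 higher and 482 lower. Against a 1.5-fold change the homozygous calls of ITGAV, PTK7, TIAM1, PLCB1, PLCB3, ADCY6, MAPK3 and MME were also lost.

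**Figure D4:**
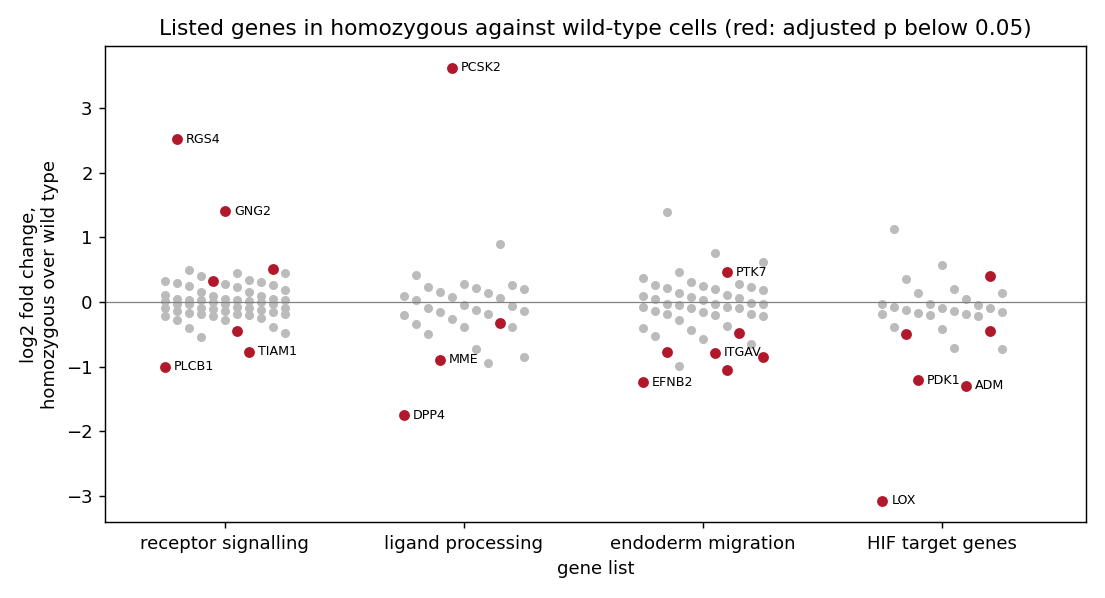
Log2 fold change in homozygous over wild-type cells (y axis) of every tested gene of 4 lists (x axis), with sideways spread for legibility only. Red points are called (edgeR adjusted p below 0.05) and grey points are not. DPP4 (-1.75), MME (-0.89) and TIAM1 (-0.77) lie below 0, PCSK2 (3.63) and GNG2 (1.40) above, and LOX (-3.07) is the lowest point.

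CXCR4, CXCL12 and APLN are known targets of hypoxia-inducible factors, so other such targets were read beside them. Of 31 tested targets 5 fell and 1 rose in homozygous against wild-type cells (19.4%, beside 7.68% of all genes), with a median log2 fold change of -0.13 against 0.01 over all genes. The fallers were LOX, a collagen crosslinking enzyme, the peptide gene ADM, the kinase gene PDK1, the collagen hydroxylase gene P4HA2 and HIF1A itself. The 1 that rose was PFKFB4 (log2 fold change 0.41, edgeR adjusted p = 0.0219), a call lost in 4 of the fits that left out a library. Most of the listed targets were not called in the main fit. ADM was at 19.1, 21.2 and 24.2 CPM in homozygous, 36.9, 34.8 and 27.8 CPM in heterozygous and 55.7, 52.5 and 51.0 CPM in wild-type replicates. The call of HIF1A (log2 fold change -0.49, edgeR adjusted p = 0.0136) was lost without wild-type replicates 2 (0.0707) or 3 (0.0521). ADM and PDK1 also fell in heterozygous against wild-type cells, and LOX, ADM and PDK1 in homozygous against heterozygous cells (6.45% and 9.68% of the list, beside 1.86% and 2.21% of all genes). The heterozygous call of PDK1 was lost without wild-type replicate 2 (edgeR adjusted p = 0.0553), and that between the mutants without heterozygous replicate 2 (0.0655). The call of ADM between the mutants was lost without heterozygous replicates 1 (0.0607) or 2 (0.0901) or homozygous replicates 1 (0.0621) or 2 (0.0579). The part of hypoxia signalling in the CXCL12 result was not tested.

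The remaining lists hold markers of the endoderm itself and of cells that could be mixed with it. In homozygous against wild-type cells 2 of 25 endoderm genes rose and 7 fell (36%, beside 7.68% of all genes). FOXA1, a pioneer factor, fell to a mean of 2.68 CPM in homozygous cells, against 20.6 CPM in wild-type cells (log2 fold change -2.92, SE 0.20, edgeR adjusted p = 2.16e-06), and the others that fell include FOXA2, CER1 and HHEX. Of 12 endothelial and blood genes CLDN5 and SOX18 rose and TEK and KDR fell (33.3%, beside 7.68%), and their summed level was 604 to 712 CPM in homozygous, 478 to 672 CPM in heterozygous and 546 to 578 CPM in wild-type libraries. Of 4 tested trophoblast and amnion genes 2 rose, TFAP2C and GATA3 (50%, beside 3.5% of all genes called higher), with sums of 27.8 to 37.8 CPM in homozygous, 17.3 to 19.2 CPM in heterozygous and 12.8 to 16.4 CPM in wild-type libraries. TFAP2C alone held a mean of 22.6, 12.1 and 9.71 CPM of these sums, in the same order. The defining markers TFAP2A (1, 8 and 9 reads summed over each genotype in that order) and VTCN1 (1, 1 and 3 reads) did not rise, and CGA had no row. Of 10 neuroectoderm genes 0 were called by edgeR, with 3 at an unadjusted p below 0.05, 1 called by DESeq2 and 0 by limma-voom. Over all 16837 tested genes 7.68% were called by edgeR and 23.2% had an unadjusted p below 0.05, and DESeq2 called 847 higher and 918 lower. The part of any of these cells in the values of CXCL12, APLNR or APELA was not tested.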

How the data were processed

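RNA sequencing was done on total RNA on an Illumina instrument, per the labels' protocols. The deposited file holds raw read counts per Ensembl gene, 1 column per library, without pooling. The submitters' processing notes name HTSeq, HISAT2, SAMtools, Trimmomatic and FastQC, with hg38 as build. Versions, annotation release and strand setting: not given in the sources used here. Symbols were found for 26177 of 26240 genes. Coordinates and exon lengths (union of all exons) came from GENCODE release 29 on GRCh38, for 25209 genes, and isoforms were not separated.

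Counts were fitted in R 4.3.3 with edgeR 4.0.16 (quasi-likelihood, filterByExpr, TMM scaling, 16837 genes, all 9 libraries, genotype as the only factor). Tests were two-sided, with Benjamini-Hochberg adjustment over all tested genes and calls below 0.05. The SE is the log2 fold change divided by the root of F, and intervals use the t distribution of the fit. CPM are counts over the TMM-adjusted library size. Replicates of a genotype differed by more than sampling noise (chi-square per degree of freedom 2.55 to 30.6), so none were merged. The fit was tested on simulated counts. Alternatives were relative log expression (RLE) and upper quartile scaling, no filter, 1 CPM in 3 libraries, DESeq2 1.42.0, limma-voom (limma 3.58.1), 6 libraries alone, a replicate block, a 1.5-fold threshold and leaving out each library.

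The members and the gene lists were chosen with earlier results of these data known. Besides the members and CHD7, named genes are up to 4 called genes per list and direction with at least 1 CPM, the 4 most abundant of the pathway lists, the 3 most like each member, and defining markers. One gene that this rule picks is not reported here. Ratios of reads between members, and P4HA2, MMP2 and MMP9, were added after the values were seen.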

Additional observations from a re-analysis of the deposited data

How the results depend on the processing

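The fall of CXCL12 in homozygous against wild-type cells was called under all 18 alternatives, with log2 fold changes from -2.13 to -1.39 and adjusted p from 5.14e-05 to 0.0341. In heterozygous against wild-type cells it was not called in the main fit but was with no filter (-1.03, adjusted p = 0.0255), in the fit of 6 libraries (-1.02, 0.00934) and with the replicate block (-0.98, 0.0260). Leaving out libraries gave -1.24 to -0.90 there and -1.10 to -0.36 in homozygous against heterozygous cells. For APELA in homozygous against heterozygous cells the replicate block gave -2.71 (adjusted p = 0.0304) and leaving out libraries -3.45 to -2.20. Members that were not called changed sign in some fits. CXCR4 in homozygous against heterozygous cells was -0.000377 with no filter and ran from -0.050 to 0.036 when libraries were left out. In the same way ACKR3 ran from -0.033 to 0.11, APLNR from -0.41 to 0.44 and APELA from -2.01 to 0.38 in homozygous against wild-type cells, and APLNR from -0.16 to 0.69 in homozygous against heterozygous cells. The heterozygous fall of CHD7 (-0.65) was not called against a 1.5-fold change. The causes were not tested.

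The number of called genes was 1293, 313 and 372 for homozygous over wild type, heterozygous over wild type and homozygous over heterozygous. Against a 1.5-fold change it was 281, 89 and 67, and leaving out libraries gave 651 to 2118, 130 to 624 and 141 to 377. The counts moved by over 1.5 times without wild-type replicates 2 (651) or 3 (700) or homozygous replicate 3 (2118) in the first comparison. In the second they did so without wild-type replicates 2 (135) or 3 (130), heterozygous replicates 1 (173) or 2 (147) or homozygous replicate 3 (624), and in the third without wild-type replicates 2 (228) or 3 (238), heterozygous replicates 1 (242) or 2 (141) or homozygous replicate 2 (211). DESeq2 called 574 and 849 in the last 2 comparisons, the fits of 6 libraries 604 and 177, and the replicate block 492 in the second. Whether the replicate numbers pair the libraries was not settled, because the labels do not say and each genotype has only 3 libraries. Deviations of same-numbered libraries correlated at -0.19 to 0.24, above 0.1 in 4 of 9 pairs. Not every library correlated best with its own number. Of the 37, 8 and 14 other named calls in the 3 comparisons, 23, 8 and 11 were lost under at least 1 alternative and 0 reversed, so the list counts are less firm than the CXCL12 call. Depth limits APLN and APELA most, with at most 8 and 113 reads in a library.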
